A study of Mus musculus with 8 samples.

Results

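Cadherins and catenins are the core of the adherens junction, and 10 genes of these families were followed here in mouse liver myofibroblasts treated with an inhibitor of O-GlcNAc transferase (OGT). They were taken from the tables by gene symbol and were 6 cadherins (Cdh1, Cdh2, Cdh3, Cdh6, Cdh11 and Cdh13) and 4 catenins (Ctnna1, Ctnnb1, Ctnnd1 and Jup) of the 40840 genes in the tables. Each of the 10 passed the filter on low counts, which left 19963 genes for testing. RNA-seq had been performed on primary myofibroblastic hepatic stellate cells (pMF-HSCs), liver cells that store vitamin A until they turn, as here, into collagen-producing myofibroblasts in culture. They came from wild-type C57BL/6J males aged 15 to 18 weeks and, per the study's methods, were isolated on a density gradient and sorted on the autofluorescence of retinol. After 7 days in serum-containing medium the cells received vehicle (DMSO, referred to as control, n = 4) or 50 µM OSMI-1, a small-molecule inhibitor of OGT (referred to as OGTi, n = 4), for 24 h. Apart from the inhibitor, both groups shared the strain, the medium and the culture time, and the study paired the treated and the control culture of each independent experiment. The labels do not say how many animals made up a culture.

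Libraries held 30068876 to 37372420 expected counts, so counting error was small for the abundant members, and differences between cultures limited the precision. The top 10 genes by count took 6.73% to 7.76% of a library's counts in control and 10.9% to 15.8% in OGTi. OGTi replicate 4 had a count in 23746 genes, beside 19035 to 20293 in the other libraries. Decorin (Dcn) was the most abundant of 10 stellate and myofibroblast markers, whose summed level was 7230 to 14574 TPM (a level scaled by transcript length and library total) in control and 5795 to 15011 in OGTi. The 10 hepatocyte markers summed to 3.3 to 3.98 TPM in control and 3.05 to 7.63 in OGTi, most of it Apoa2 (3.37 and 3.73 TPM on average), with Hnf4a and Tat at 0 in every library and Cyp2e1 called higher at under 2 TPM. The cholangiocyte and epithelial list summed to 332 to 657 TPM in control and 129 to 563 in OGTi, most of it Spp1 and Krt19, and its defining surface marker Epcam averaged 0.11 TPM in control and 0.30 in OGTi. The endothelial list summed to 668 to 830 TPM in control and 315 to 635 in OGTi, nearly all of it Eng, while Pecam1 averaged 0.165 and 0.282 TPM. The macrophage and leukocyte list summed to 62.1 to 196 TPM in control and 94.6 to 236 in OGTi. Its most abundant gene, Lyz2, varied between cultures, from 13.7 to 138 TPM in control and 18.6 to 168 in OGTi.

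Classical cadherins are transmembrane proteins that bind the same cadherin on a neighbouring cell through calcium-dependent extracellular repeats. Their cytoplasmic tails hold p120-catenin (Ctnnd1) near the membrane, where it slows the removal of the cadherin, and either beta-catenin (Ctnnb1) or plakoglobin (Jup) at the far end. Alpha-catenin (Ctnna1) binds beta-catenin or plakoglobin and ties the complex to actin. Beta-catenin also acts as the nuclear effector of Wnt signaling, and its amount is set largely by protein degradation, which RNA does not show. Mesenchymal cells are known for N-cadherin (Cdh2) and OB-cadherin (Cdh11), and epithelia for E-cadherin (Cdh1) and P-cadherin (Cdh3).

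OGTi lowered Cdh11 and changed no other member past the threshold. Cdh11, known as a cadherin of fibroblasts and myofibroblasts, was 2.72-fold lower in OGTi and was lower in 4 of 4 pairs. Of the 10 members, 1 was therefore called lower and 0 were called higher (edgeR quasi-likelihood test blocked on replicate, called where the p adjusted by Benjamini-Hochberg over all genes tested was at most 0.05). Over all genes tested 18.4% were called, 8.13% higher and 10.2% lower, so 1 of 10 is a share near that background. The median log2 fold change (log2 FC) of the members was -0.33, beside 0.01 over all genes tested, and 6 of 10 were below 0. At an unadjusted p under 0.05, 3 members were lower (Cdh11, Ctnnd1 and Jup) and 2 higher (Cdh1 and Ctnnb1). DESeq2 called 4 of the 10, namely Cdh11 and Ctnnd1 lower and Ctnnb1 and Cdh1 higher. In bulk RNA, fewer cells of a type and less RNA per cell cannot be told apart.

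**Figure D1:**
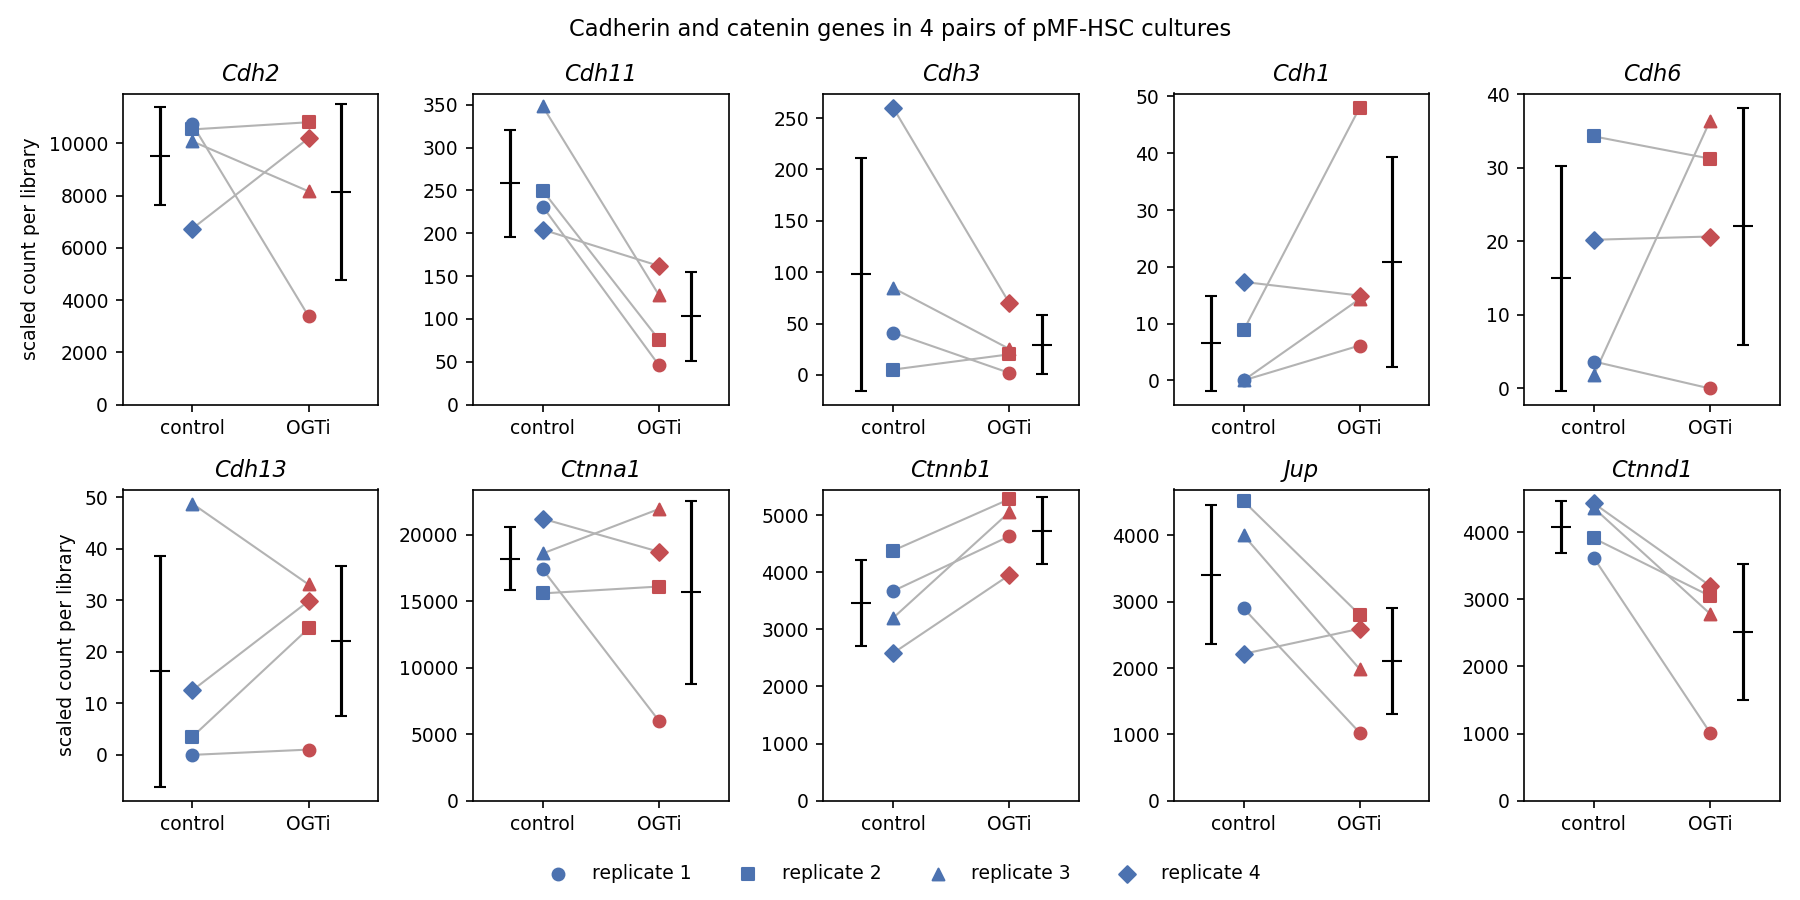
Scaled counts (counts brought to a common library size) of the 10 genes, 1 panel per gene, in control (blue) and OGTi (red). Marker shape gives the replicate, grey lines join the libraries of a pair, and black bars give the mean ± SD of each group. For Cdh11 the 4 OGTi libraries lie between 46.1 and 162.0, below the 4 control libraries at 204 to 348, and OGTi replicate 1 is the lowest OGTi library in 9 of the 10 panels.

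The members differed widely in level. In control, Ctnna1 led with 274.8 ± 37.8 TPM (SD, n = 4), followed by Cdh2 with 79.1 ± 15.3, Ctnnb1 with 51.1 ± 10.7, Jup with 48.7 ± 15.0 and Ctnnd1 with 20.8 ± 2.29. Cdh11 followed at 2.45 ± 0.636 TPM and Cdh3 at 1.26 ± 1.46. Cdh13, Cdh6 and Cdh1 averaged 0.215, 0.080 and 0.075 TPM and stayed under 1 TPM in every library. The ranges of neighbours overlapped among Cdh2, Ctnnb1 and Jup, and again from Cdh11 down through Cdh3 to the 3 lowest genes. No control library of Ctnna1 overlapped Cdh2, none of Ctnnd1 overlapped Jup, and none of Cdh11 overlapped Ctnnd1. Among the genes with a TPM above 0 in control, Ctnna1 stood at percentile 97.0, Cdh2 at 91.2 and Cdh11 at 57.7. In OGTi the same 5 genes stayed above all others, with Ctnna1 at 194.1 ± 89.5 TPM, Cdh2 at 56.0 ± 27.2, Ctnnb1 at 56.4 ± 11.6, Jup at 24.8 ± 11.4 and Ctnnd1 at 10.6 ± 5.00 (SD, n = 4).

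**Figure D2:**
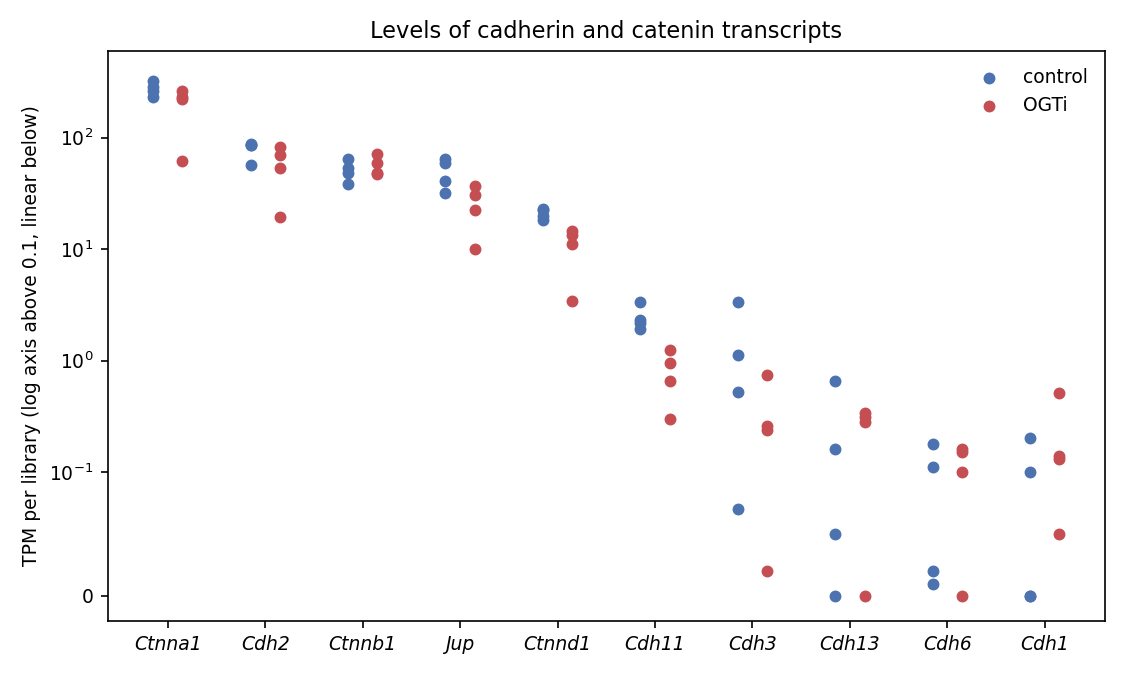
Level of each gene in TPM in every library, control in blue and OGTi in red, genes ordered by their control mean, on an axis that is logarithmic above 0.1 and linear below. Ctnna1 lies between 232 and 321 TPM in the control libraries and Cdh11 between 1.93 and 3.37, whereas Cdh13, Cdh6 and Cdh1 lie at 0.65 or below.

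Cdh2 (GRCm39 chromosome 18, 16700793 to 16942381, minus strand) encodes N-cadherin and made up 94.8% ± 2.97 of the TPM of the 6 cadherins in control and 97.3% ± 0.808 in OGTi (SD, n = 4). Its scaled counts were 10730, 10534, 10078 and 6737 in control replicates 1 to 4 and 3389, 10809, 8166 and 10196.5 in OGTi replicates 1 to 4. The groups overlapped, with 1 low library in each group: control replicate 4 and OGTi replicate 1. The log2 FC of Cdh2 was -0.32 ± 0.32 (SE, adjusted p = 0.555, 95% interval -1.04 to 0.40), lower in 2 of 4 pairs. Without replicate 1 it was 0.11. Of the TPM of all 23 Cdh genes Cdh2 took 91.8% ± 3.24 in control and 95.5% ± 0.764 in OGTi.

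Cdh11 lies on GRCm39 chromosome 8 (103358726 to 103512687, minus strand), where its span overlaps noncoding genes on the same strand. Its scaled counts were 231, 249.7, 348 and 204 in control replicates 1 to 4 and 46.1, 75.9, 128 and 162.0 in OGTi replicates 1 to 4. Every OGTi library was below every control library. On the same scale the means were 258.3 ± 62.7 in control and 103.0 ± 51.9 in OGTi (SD, n = 4), and the log2 FC was -1.45 ± 0.34 (SE, adjusted p = 0.0158, 95% interval -2.21 to -0.69). The fall differed in size between pairs, at -2.30, -1.70, -1.44 and -0.33 for replicates 1 to 4. Left out in turn, replicates 1, 2 and 3 each took the adjusted p past the threshold (0.0547, 0.0666 and 0.0611), while the log2 FC remained negative at -1.16, -1.32 and -1.45. The other 10 alternatives tried, leaving out replicate 4 among them, kept the call.

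Cdh11 also fell relative to Cdh2 within a library, a ratio that scaling between libraries does not touch. Cdh11 took 2.38%, 2.62%, 3.70% and 3.12% of the TPM of the 6 cadherins in control replicates 1 to 4 and 1.53%, 0.788%, 1.73% and 1.73% in OGTi. The highest OGTi share was therefore below the lowest control share. The level of Cdh2 over that of Cdh11 was 25.5 to 40.8 in control and 55.7 to 124 in OGTi, higher in 4 of 4 pairs. These shares restate the Cdh11 counts against another member and are given without a test.

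**Figure D3:**
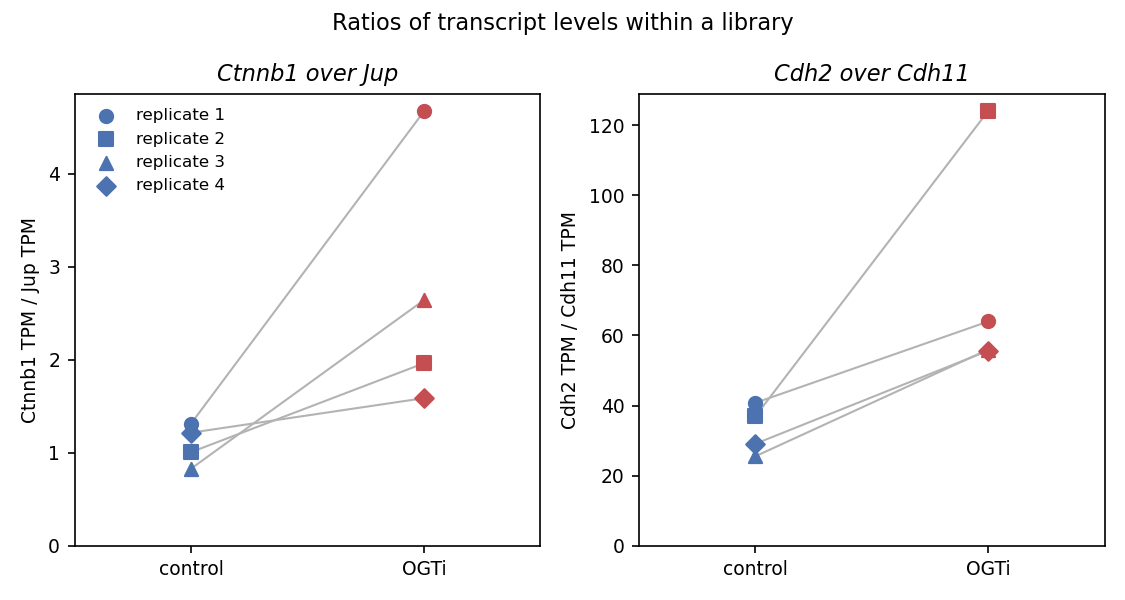
Ratios of TPM within each library, Ctnnb1 over Jup on the left and Cdh2 over Cdh11 on the right, with grey lines joining the control (blue) and OGTi (red) library of a pair and marker shape giving the replicate. Ctnnb1 over Jup is at most 1.31 in control and at least 1.59 in OGTi, and Cdh2 over Cdh11 is at most 40.8 in control and at least 55.7 in OGTi.

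Among the genes with a mean level of at least 1 TPM (11653 compared), those whose profile over the 8 libraries lay nearest to that of Cdh11 were Spsb1, Creb3l2 and Tgfb2. Likeness was the root mean square difference in log2 scaled counts, each gene centred on its own mean, and came to 0.23, 0.24 and 0.26, where Cdh11 itself varied around its mean by 0.89. Each of the 3 was called lower in OGTi, with log2 FC of -1.17 (Spsb1), -1.27 (Creb3l2) and -1.37 (Tgfb2). All 3 were more abundant than Cdh11, at 71.7, 40.4 and 6.47 TPM over the 8 libraries. The points of this comparison share libraries and treatment, so it only describes which genes ran alongside. Nearness to the Cdh11 profile includes its fall in OGTi, so the lower calls of the 3 genes are no separate result.

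The other cadherins were scarce. Cdh3, which encodes P-cadherin and lies on GRCm39 chromosome 8 (107237456 to 107283929, plus strand), had scaled counts of 41.3, 5.28, 84.7 and 260.1 in control replicates 1 to 4 and 2.05, 20.1, 25.4 and 70.1 in OGTi. Replicate 4 was the highest library in both groups, and 3 of 4 pairs were lower in OGTi. Its log2 FC of -1.49 ± 0.72 did not pass the test (SE, adjusted p = 0.184, 95% interval -3.09 to 0.10), though without replicate 2 it was -2.27 with an adjusted p of 0.0205. Control replicate 4, the highest for Cdh3, was the lowest for Cdh2, Ctnnb1, Jup and Cdh11 among the controls.

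Cdh1 (GRCm39 chromosome 8, 107329941 to 107396880, plus strand) encodes E-cadherin and was counted 0, 10, 0 and 18 times in control and 6, 43, 13 and 13 times in OGTi. The controls thus include 2 libraries with no count, where up to 3 counts, or 0.0772 and 0.0775 CPM (counts scaled to a common library total) in these libraries, could have been missed. The log2 FC was 2.33 ± 1.00 (SE, adjusted p = 0.139, 95% interval 0.11 to 4.54) and 3 of 4 pairs were higher in OGTi. Even the highest library held 0.51 TPM, beside 81.9 TPM of Cdh2 in the same library. Epcam, another epithelial surface marker, averaged 0.11 TPM in control and 0.30 in OGTi and did not pass the test (log2 FC 2.18, adjusted p = 0.124). Of the 10 cholangiocyte and epithelial markers, 1 was called higher (Sox9) and 1 lower (Krt19), and 7 were below 0, Krt18 at -1.61 and Krt8 at -0.88 among them. Whether epithelial cells had a part in the Cdh1 counts was not tested. Cdh6 (kidney cadherin, chromosome 15, 13028787 to 13174004, minus strand) and Cdh13 (T-cadherin, which is anchored by a lipid and has no cytoplasmic tail, chromosome 8, 119010328 to 120051660, plus strand) had at most 39 and 53 counts in a library. Their log2 FC were 0.47 ± 0.94 and 1.11 ± 0.73 (SE, adjusted p = 0.787 and 0.332), and the intervals of -1.63 to 2.57 and -0.50 to 2.72 allow changes in either direction.

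**Figure D4:**
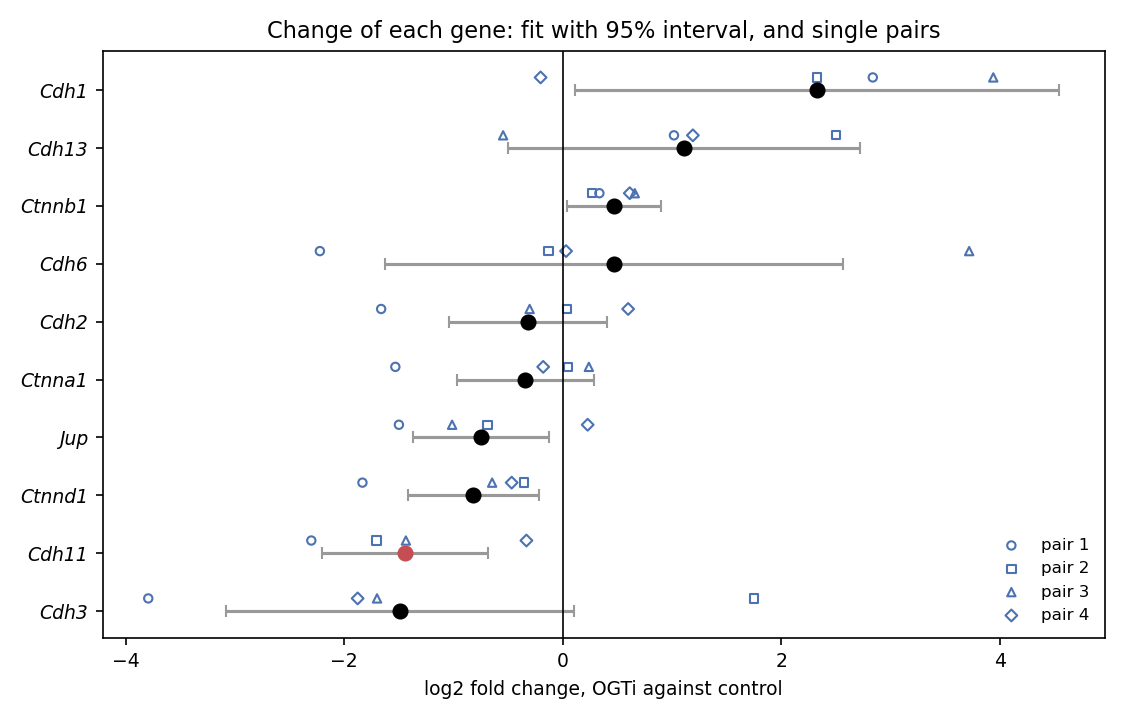
Log2 FC of each gene, OGTi against control, ordered by size. Filled circles with grey bars give the fit with its 95% interval (red where adjusted p was at most 0.05) and open markers give single pairs. Cdh11 is the red point, at -1.45, and the pairs of Ctnnb1 are all above 0 while those of Ctnnd1 and Cdh11 are all below 0.

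Ctnna1 (GRCm39 chromosome 18, 35226033 to 35387833, plus strand), the actin-linking alpha-catenin, supplied 69.3% ± 6.68 of the TPM of the 4 catenins in control and 65.2% ± 10.4 in OGTi (SD, n = 4). Its scaled counts were 17390.2, 15593, 18597 and 21207 in control replicates 1 to 4 and 6011, 16108, 21938 and 18726 in OGTi. Replicate 1 of OGTi stood far below the rest, and the other 3 OGTi libraries lay among or above the controls. The log2 FC was -0.34 ± 0.28 (SE, adjusted p = 0.452, 95% interval -0.97 to 0.29), and without replicate 1 it was 0.04.

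Ctnnb1 and Jup, whose products compete for the same place on the cadherin tail, had fold changes of opposite sign. Ctnnb1 lies on GRCm39 chromosome 9 (120757422 to 120789579, plus strand) and Jup on chromosome 11 (100259784 to 100291103, minus strand). Scaled counts of Ctnnb1 were 3671, 4379, 3199.8 and 2583 in control replicates 1 to 4 and 4630.1, 5279.9, 5052 and 3950.2 in OGTi. All 4 pairs were higher in OGTi, although the groups overlapped, since control replicate 2 was above OGTi replicate 4. The log2 FC of Ctnnb1 was 0.47 ± 0.19 (SE, adjusted p = 0.123, 95% interval 0.04 to 0.90), positive under each of the 13 alternatives tried and called in 2 of them. Scaled counts of Jup were 2901, 4517, 4003 and 2213 in control and 1025, 2803, 1983 and 2591 in OGTi, lower in 3 of 4 pairs and overlapping between the groups. The log2 FC of Jup was -0.75 ± 0.28 (SE, adjusted p = 0.0944, 95% interval -1.37 to -0.12), and it was called in 4 of the 13 alternatives.

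Neither gene passed the test on its own, while their ratio within a library did not overlap between the groups. Ctnnb1 TPM over Jup TPM was 1.31, 1.01, 0.828 and 1.21 in control replicates 1 to 4 and 4.67, 1.96, 2.64 and 1.59 in OGTi. The transcripts were thus about equally abundant in control and Ctnnb1 was the more abundant in each OGTi library. As a share of catenin TPM, Ctnnb1 was 13.1% ± 3.29 in control and 22.7% ± 10.7 in OGTi (SD, n = 4), higher in 4 of 4 pairs, with the highest value in OGTi replicate 1 at 38.3%. The ratio was formed after the values of both genes were known and carries no test.

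Ctnnd1 (GRCm39 chromosome 2, 84425959 to 84489326, minus strand), which encodes p120-catenin, was the other member whose groups did not overlap. These 2 of 10 members stand beside 12% of all genes tested whose OGTi scaled counts lay wholly below control. Its scaled counts were 3617, 3909, 4361 and 4430.1 in control replicates 1 to 4 and 1014, 3049.8, 2785 and 3202 in OGTi. Every OGTi library was below every control library, and replicate 1 of OGTi was lower by far than the other 3. The log2 FC was -0.82 ± 0.27 (SE, adjusted p = 0.0610, 95% interval -1.41 to -0.22), with pair values of -1.83, -0.36, -0.65 and -0.47. It was called in 4 of the 13 alternatives, and without replicate 1 it was -0.49 with an adjusted p of 0.0891. Its share of catenin TPM was 5.25% ± 0.287 in control and 3.57% ± 0.717 in OGTi (SD, n = 4), also without overlap. In the GENCODE annotation another protein-coding gene, Gm28635, overlaps the Ctnnd1 span on the same strand. Whether reads were divided between them in these counts was not tested.

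Replicate 1 of OGTi thus held the lowest OGTi count of 9 of the 10 genes, with Ctnnb1 as the exception. In that library the longest quintile of genes with a mean of at least 1 CPM (5064 bases or longer) had a median log2 difference of -0.48 from the mean of the other 3 OGTi libraries, and the shortest quintile one of 0.59. Of the members, Cdh2, Cdh6, Cdh11 and Ctnnd1 are at least that long. With each library's trend on gene length removed, the log2 FC was -1.19 for Cdh11 (adjusted p = 0.0311), -0.65 for Ctnnd1 (adjusted p = 0.0540), -0.53 for Jup (adjusted p = 0.167) and 0.68 for Ctnnb1 (adjusted p = 0.0180). Ctnnb1 was then called higher and Cdh11 remained called lower. The part of the length trend in the values of single members was not tested further.

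Promoter sequences are shown for the 3 catenin genes with opposite directions, Ctnnb1 above 0 and Jup and Ctnnd1 below 0. The RefSeq promoter table (GRCm38.p6) held 4 of the 10 members, namely these 3 and Cdh6, and each window of 250 bases before the start site matched 1 place in GRCm39. Capitals mark the CCAAT box (CCAAT, or ATTGG on the other strand) and the GC box (GGGCGG or CCGCCC), short elements common in promoters of widely expressed genes. The windows are Ctnnb1 at chr9:120762216-120762465 (plus strand), Jup at chr11:100288617-100288866 (minus strand) and Ctnnd1 at chr2:84489322-84489571 (minus strand), each written 5′ to 3′ along its gene. Those of Ctnnb1 and Jup lie within the gene span of the GENCODE annotation, which also has starts further upstream.
Ctnnb1: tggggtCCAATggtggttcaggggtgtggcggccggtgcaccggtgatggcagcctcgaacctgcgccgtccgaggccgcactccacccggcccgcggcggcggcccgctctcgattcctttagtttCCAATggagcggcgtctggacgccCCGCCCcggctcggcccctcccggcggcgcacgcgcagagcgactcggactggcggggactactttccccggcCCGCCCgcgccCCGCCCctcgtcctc
Jup: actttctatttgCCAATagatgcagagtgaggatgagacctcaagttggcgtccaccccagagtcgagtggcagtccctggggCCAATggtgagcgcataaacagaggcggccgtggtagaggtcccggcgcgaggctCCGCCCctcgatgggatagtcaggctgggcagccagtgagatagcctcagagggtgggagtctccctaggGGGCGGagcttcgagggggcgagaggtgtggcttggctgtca
Ctnnd1: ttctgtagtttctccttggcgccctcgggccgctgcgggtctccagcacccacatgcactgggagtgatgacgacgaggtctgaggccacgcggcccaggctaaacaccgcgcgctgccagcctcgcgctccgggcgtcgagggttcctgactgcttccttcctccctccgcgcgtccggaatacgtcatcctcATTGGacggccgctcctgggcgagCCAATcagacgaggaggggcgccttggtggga
Each of the 3 windows held 2 CCAAT boxes, which 34.5% of 27025 promoters of the same length have at least once. GC boxes numbered 3 in Ctnnb1, 2 in Jup and 0 in Ctnnd1, beside 33% of promoters with at least 1. Neither the TEAD-type motif GGAATG (12.6% of promoters) nor the E-box CACCTG (17.1%) was found in these windows on either strand. GC content was 74.8% for Ctnnb1, 62% for Jup and 66.8% for Ctnnd1. These are matches of letters in 1 window per gene and say nothing of binding.

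Outside the 10 members, 1 list held genes that link the adherens junction to the cytoskeleton, and nectins, which build junctions beside the cadherins. Of 17 adherens junction linkers and nectins tested, 6 were lower and 0 higher, beside 10.2% and 8.13% of all genes tested. The median log2 FC of this list was -0.50 beside 0.01 over all genes. Nectin2, an immunoglobulin-like adhesion receptor, averaged 227.8 ± 26.7 TPM in control and 45.4 ± 19.3 in OGTi (SD, n = 4), with a log2 FC of -2.06 ± 0.24 (SE, adjusted p = 0.000624). Its control range of 189.5 to 251.5 TPM overlapped that of Ctnna1 and lay above that of Cdh2. Plekha7, which links p120-catenin to microtubules, had a log2 FC of -2.90 ± 0.47 (SE, adjusted p = 0.00266), and Lima1, an actin-binding partner of alpha-catenin, one of -1.41 ± 0.22 (SE, adjusted p = 0.00214). The remaining 3 called lower were Magi1, Vasp and Vezt. Vinculin (Vcl) and afadin (Afdn), which anchor the same complexes to actin, were not called, at -0.50 and 0.05. The other nectins did not share the direction of Nectin2 and were not called. Nectin1 had a log2 FC of 0.70 (adjusted p = 0.0813, unadjusted p under 0.05), Nectin3 of 0.35 and Nectin4 of 0.63, above 0 in 4, 4 and 3 of 4 pairs. DESeq2, upper-quartile scaling and the fit with the length trend removed each called 1 gene of this list higher. Leaving out 1 replicate at a time gave 3 to 4 genes lower in place of 6, while Nectin2, Plekha7 and Lima1 were called under each of the 13 alternatives.

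**Figure D5:**
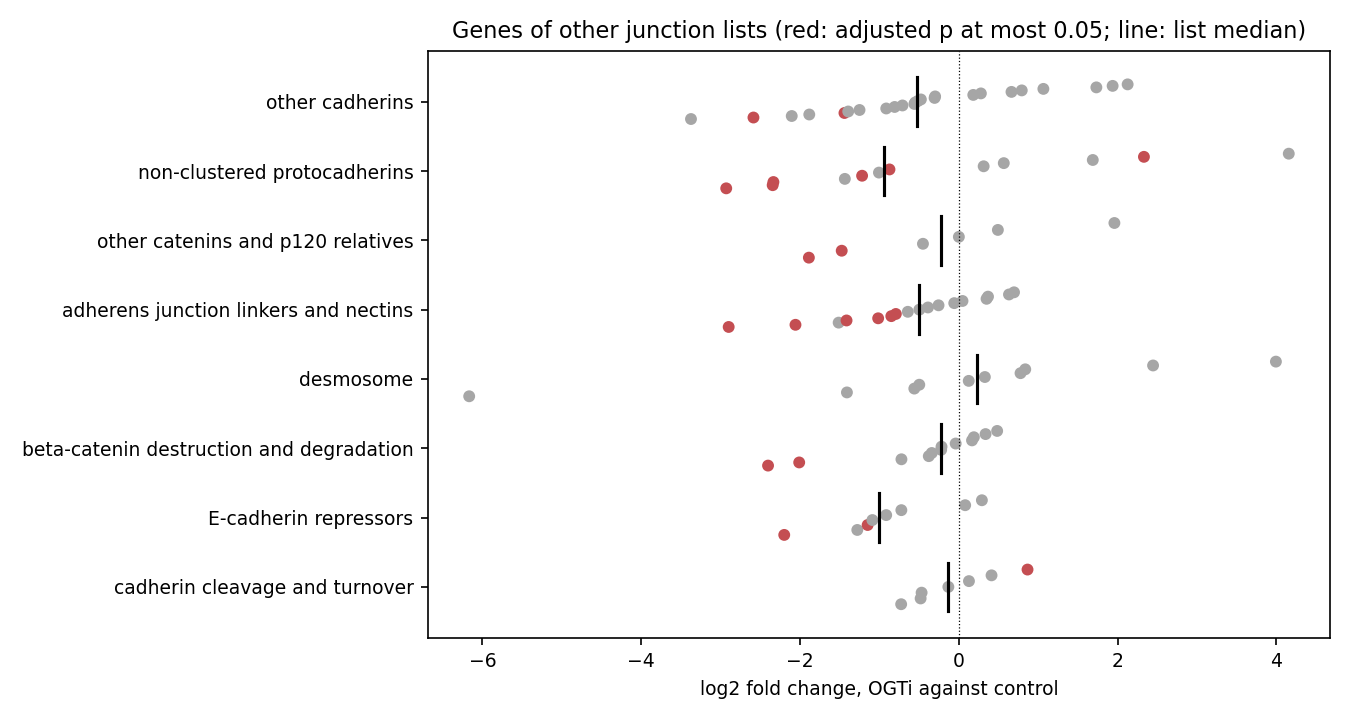
Log2 FC (OGTi against control) of every tested gene of 8 further lists of cadherin and junction genes, 1 point per gene, red where adjusted p was at most 0.05, with a black line at the list median. The adherens junction linkers have 6 red points, all below 0, the non-clustered protocadherins have 5 below and 1 above 0, and the desmosome list has none.

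Among non-clustered protocadherins, cadherin relatives without the catenin-binding tail, 5 of 12 were lower and 1 was higher. Over all genes tested these shares were 10.2% and 8.13%, and the median log2 FC of the list was -0.94. Pcdh18 averaged 68.1 ± 13.5 TPM in control, close to Cdh2, and 12.8 ± 7.03 in OGTi (SD, n = 4), with a log2 FC of -2.34 ± 0.40 (SE, adjusted p = 0.00358). Pcdh9 went from 26.7 ± 5.97 to 4.71 ± 3.18 TPM (SD, n = 4), with a log2 FC of -2.33 ± 0.32 (SE, adjusted p = 0.00131). Pcdh12 was lower at 0.33 TPM in control, and Pcdh19 was higher by a log2 FC of 2.33 (adjusted p = 0.00487) but averaged only 0.225 TPM in OGTi. The count of lower genes was 2 to 5 when 1 replicate was left out, and Pcdh12 lost its call without replicate 4 (adjusted p = 0.0532).

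Of 24 other cadherins tested, 2 were lower and 0 higher, a share near the 10.2% of all genes called lower. They were Cdh26 at -2.59 ± 0.60 (SE, adjusted p = 0.0150) and the giant cadherin Fat4 at -1.44 ± 0.41 (SE, adjusted p = 0.0349), both under 2 TPM in every library. At an unadjusted p under 0.05, 5 were lower and 1 higher, and DESeq2 called 4 lower and 0 higher. Cdh5, the cadherin of endothelium, averaged 0.0175 TPM in control and 0.0200 in OGTi. Of the list of other catenins and p120 relatives, which also held Ctnnbip1, 6 genes were tested. Beside 10.2% of all genes tested, 2 of these were lower. Ctnnal1 (alpha-catulin) was lower at -1.89 ± 0.30 (SE, adjusted p = 0.00260) and Ctnnd2 (delta-catenin) at -1.47 ± 0.44 (SE, adjusted p = 0.0438). The p120 relatives Arvcf and Pkp4 were not called. No gene of this list was higher by DESeq2 or at an unadjusted p under 0.05, though 1 was called higher with the length trend removed. Leaving out 1 replicate gave 0 to 3 other cadherins and 1 to 2 other catenins lower. Of the 13 alternatives, Cdh26 lost its call in 2 (replicate 4 left out, no block), Fat4 in 4 (replicate 1, 3 or 4 left out, no block) and Ctnnd2 in 5 (replicate 1, 3 or 4 left out among them). None of 10 desmosome genes tested was called, and 11 of the 14 on the list were under 1 TPM in every library, desmoplakin (Dsp) and the desmogleins among them. At an unadjusted p under 0.05, 1 of the 10 passed (Dsg2, lower), and DESeq2 called 1.

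A further list held 12 genes of the beta-catenin destruction complex and its regulators, the tankyrases Tnks and Tnks2 that act on Axin included. Beside 10.2% lower and 8.13% higher over all genes tested, 2 of these were lower and 0 higher. They were Amer1, a membrane scaffold of the complex, at -2.40 ± 0.39 (SE, adjusted p = 0.00276), and Apc2 at -2.01 ± 0.60 (SE, adjusted p = 0.0429). Apc2 lost its call in 5 of the 13 alternatives, with replicate 2, 3 or 4 left out among them (adjusted p up to 0.152), so that 1 to 2 genes of the list were lower with a replicate left out. The central members Apc, Axin1, Gsk3b and Csnk1a1 were not called, at log2 FC of 0.19, 0.48, -0.38 and 0.34. Axin1 had an unadjusted p under 0.05, and DESeq2 and the fit with the length trend removed each called 1 gene of this list higher. Of 7 genes of cadherin cleavage and turnover, 1 was higher and 0 lower, beside 8.13% and 10.2% of all genes tested. The higher gene was the gamma-secretase subunit Psen2 at 0.87 ± 0.20 (SE, adjusted p = 0.0153). By DESeq2 and at an unadjusted p under 0.05, 0 were lower as well, with the sheddase gene Adam10 at -0.48 (adjusted p = 0.193). Psen2 lost its call in 5 of the 13 alternatives (library totals, without replicate 2, without replicate 3 and both fits on TPM, adjusted p up to 0.0632), which left 0 to 1 called with a replicate left out. Among 8 known repressors of E-cadherin transcription, 2 were lower and 0 higher, beside 10.2% and 8.13% of all genes tested. DESeq2 called 3 lower and 0 higher, and at an unadjusted p under 0.05, 4 were lower and 0 higher. Tcf4, which encodes the basic helix-loop-helix factor E2-2 rather than the Wnt effector of that nickname, went from 22.2 ± 3.95 to 3.92 ± 1.12 TPM (SD, n = 4; log2 FC -2.20 ± 0.26 SE, adjusted p = 0.000597). Zeb1 was lower at -1.15 ± 0.28 (SE, adjusted p = 0.0191), Zeb2 had -1.09 (adjusted p = 0.0504), and Snai1 and Snai2 had 0.08 and 0.29. Cdh1 remained at or below 0.51 TPM throughout, as given above. Under the alternatives that left out 1 replicate, 1 to 3 of these repressors were lower, Tcf4 in each case, while Zeb1 lost its call without replicate 3 and without the block (adjusted p up to 0.0923).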

How the data were processed

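RNA-seq of 4 control and 4 OGTi pMF-HSC cultures was analysed. By the labels and the methods of the study, the authors prepared stranded libraries after oligo dT enrichment, aligned paired-end reads to mm39 with Bowtie2 2.3.5.1 and quantified them with RSEM 1.3.1, giving 1 table per library. The deposited expected counts are estimates per gene that need not be whole (0.251% to 0.978% of detected genes had a fractional value), and the deposited TPM are scaled by transcript length and library total, so TPM also move with the composition of a library. The authors' lengths per gene were used for the length trend. The methods give GENCODE as the annotation, but transcript identifiers in the tables are from RefSeq, and positions given here are those of GENCODE vM39 (GRCm39). A deposited table of the authors' own comparison (fold changes, p-values) was not used. The number of other unused columns of per-sample values was 0.

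Expected counts were rounded and the 19963 of 40840 genes with a total of at least 10 counts were fitted in edgeR 4.0.16 (R 4.3.3) by TMM scaling and the quasi-likelihood test, with the replicate number as a block. The biological coefficient of variation was 0.342. Benjamini-Hochberg adjustment ran over the whole table. Scaled counts are counts over the TMM-adjusted library size times its mean. The 8 cultures are 4 independent experiments per group by the study's methods, which pair them. Their departures from the mean of each group in log2 CPM correlated across genes at 0.160, 0.224, 0.105 and 0.318 for same-numbered libraries and at -0.312 to 0.208 for others, as a description. Depth was 30068876 to 37372420 expected counts, and the limit that a count of 0 allows (3 counts) was 0.0740 to 0.0967 CPM, counting error only, since without molecular identifiers reads do not stand for separate molecules.

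The members and lists were chosen with earlier results of these data known, so no list was tested as a set. All 10 members were named. In the other lists up to 3 called genes of lowest p per direction were named, with the most abundant gene of each cell type list and the 3 genes most like the called member of lowest p (at least 1 TPM, log2 scaled count with 1 added), and other genes were named after their values were seen. Alternatives were upper-quartile scaling, library totals, no filter, filterByExpr, no block, length trend removed, each replicate left out, limma-trend (limma 3.58.1) on log2 TPM with 1 or 0.1 added, and DESeq2 1.42.0. Promoters came from a RefSeq table (GRCm38.p6), which matched 4 of 10 members. Cdh1, Cdh2, Cdh3, Cdh11, Cdh13 and Ctnna1 did not match.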

Additional observations from a re-analysis of the deposited data

Results flagged for a closer look

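Among the 20 sets of 4 libraries examined (10 genes in 2 groups), 1 held a library far from the other 3, where chance alone gives about 1. It was Cdh2 in control replicate 4, with a scaled count of 6737 beside 10078 to 10730 in the other control libraries. The low Cdh2 count of OGTi replicate 1, at 3389 beside 8166 to 10809, did not reach the same limit.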

How the results depend on the processing

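Cdh11 kept its negative direction in each of the 13 alternatives (log2 FC -1.80 to -0.96, adjusted p from 0.000424 to 0.0666) and its call in 10. Without the replicate block it was -1.33 (adjusted p = 0.0387), and the block changed the call of no member. Without the block, 2991 genes were called in place of 3666. The number of members called (1, lower) became 3 (all lower) with library totals and with limma-trend on TPM with 0.1 added, 4 (all lower) without a filter, 2 with the length trend removed (1 higher) and 4 with DESeq2 (2 higher, 2 lower), and was 0 to 2 (0 to 2 lower) with a replicate left out. With a replicate left out, signs turned for Cdh2 (-0.62 to 0.11) and Ctnna1 (-0.54 to 0.037), both without replicate 1, and for Cdh6 (-0.51 to 0.99), without replicate 3. Over all genes, leaving out a replicate gave 1905 to 3124 calls (843 to 1433 higher, 1062 to 1744 lower), and limma-trend on TPM gave 3456 lower (1 added) and 3473 lower (0.1 added). The median log2 FC of all genes was 0.01 here, 0.13 with upper-quartile scaling, -0.19 with library totals and -0.10 and -0.23 on TPM. Genes called higher made up 44.3% of calls here, 54.2% with upper-quartile scaling, 30.1% with library totals and 25.7% and 26.2% on TPM. For the failures of Cdh11 with a replicate left out and the other differences the cause was not tested, beyond fewer libraries. Cdh1, Cdh6 and Cdh13 had at most 53 counts in a library. Whether depth or differences between cultures limited these genes more was not tested.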

Other observations

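Several markers of cell types also differed between the groups. Pdgfrb, the PDGF receptor of stellate cells, averaged 106.7 ± 51.7 TPM in control and 26.6 ± 12.1 in OGTi (SD, n = 4; log2 FC -1.68, adjusted p = 0.00154), and Lrat, the enzyme that esterifies retinol for storage, 12.1 ± 5.13 and 2.62 ± 0.281 (SD, n = 4; log2 FC -1.78, adjusted p = 0.00232). They were the only 2 of 10 stellate and myofibroblast markers called lower in the edgeR test, with 0 called higher. At an unadjusted p under 0.05, 4 were lower (these 2, Col1a1 at -0.85 and Col1a2 at -0.54) and 2 higher (Lum at 0.41 and Tagln at 0.53). Cdh11 was lower beside them while the most abundant marker, Dcn, had a log2 FC of 0.25 (adjusted p = 0.311).

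In the epithelial list Sox9, a transcription factor of biliary and progenitor cells, was higher by a log2 FC of 3.03 (adjusted p = 0.00859; 0.42 to 1.96 TPM in control and 3.03 to 22.9 in OGTi) and Krt19 was lower by -0.66 (adjusted p = 0.0462). In the endothelial list Tek (-3.36, adjusted p = 0.00235) and Lyve1 (-3.17, adjusted p = 0.0340) were lower, both at most 1.59 TPM. In the macrophage list Cd68 was higher (22.8 ± 8.82 TPM in control and 50.6 ± 18.5 in OGTi, SD, n = 4, adjusted p = 0.00154) and Cd14 lower (-0.88, adjusted p = 0.0455), with Lyz2 the most abundant at 60.3 and 70.0 TPM. Of the 10 genes of that list 7 were below 0, with a median log2 FC of -0.63. Of the 13 alternatives, Krt19 lost its call in 7 and Lyve1 in 5, both with any replicate left out, and Cd14 in 4, with replicate 1, 3 or 4 left out and with upper-quartile scaling (adjusted p up to 0.144, 0.103 and 0.193). Cyp2e1 was higher in the hepatocyte list (3.98, adjusted p = 0.00591) at 0.745 TPM in OGTi. Of the mesothelial list, led by Msln at 0.830 TPM in control, 0 of 4 genes tested were called by edgeR and 0 had an unadjusted p under 0.05.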
